A study of Mus musculus with 14 samples.

Results

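Genes that run the G1 phase of the cell cycle were followed in mammary epithelial cells of mice that overexpress the deubiquitinase Usp22. They were taken by gene symbol: the D-type cyclins Ccnd1, Ccnd2 and Ccnd3, the E-type cyclins Ccne1 and Ccne2, the kinases Cdk4 and Cdk6, the kinase inhibitor Cdkn2c, and the RB-family genes Rb1 and Rbl1. All 10 were present among the 16124 genes of the expression table. RNA came from 7 littermate pairs of females aged 3.5 months, numbered 1 and 3 to 8. Each pair held 1 wild-type (WT) mouse and 1 Rosa26KI-Usp22 OE/OE mouse, with 1 library per mouse. The OE/OE mice carried a Flag-myc-tagged mouse Usp22 cDNA in both ROSA26 alleles, driven by the CAGGS promoter after Zp3-cre had removed a stop cassette in the female germ line, a design meant to give expression in every cell type. Which embryonic stem cell clone the line came from is not given in the sources used here. For each mouse, the number 2, 3 and 4 glands of both sides were pooled and epithelial organoids were separated from stroma by pulse centrifugation, without sorting.

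These genes form the switch that commits a cell to division. D-type cyclins, made in response to growth factors and hormones, bind CDK4 or CDK6, and the complexes phosphorylate RB, which then releases the E2F transcription factors. E2F activates the genes of S phase together with Ccne1, Ccne2 and Rbl1 themselves, and cyclin E with CDK2 completes the phosphorylation of RB. The INK4 protein encoded by Cdkn2c binds CDK4 and CDK6 and keeps the D-type cyclins off them. In the mammary gland, cyclin D1 is known for its part in the growth of the secretory lobules.

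Proximal promoters of 6 members (Ccnd3, Ccne1, Cdk4, Cdk6, Cdkn2c and Rbl1) were matched in RefSeq (GRCm38.p6), and 2 are shown because they held the only E2F match and the most E-boxes among the members. In the Rbl1 sequence (chr2:157204535-157204784, minus strand, ending at the base before the start site) capitals mark a match to the E2F letters, and in the Cdk4 sequence (chr10:127063285-127063533, plus strand, bases that lie in an annotated exon left out) capitals mark the E-box CACGTG.
Rbl1: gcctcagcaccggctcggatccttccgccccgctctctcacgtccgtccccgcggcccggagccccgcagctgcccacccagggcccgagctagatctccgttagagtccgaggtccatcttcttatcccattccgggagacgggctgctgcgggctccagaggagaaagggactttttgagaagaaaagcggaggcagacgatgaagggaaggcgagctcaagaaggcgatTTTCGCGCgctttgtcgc
Cdk4: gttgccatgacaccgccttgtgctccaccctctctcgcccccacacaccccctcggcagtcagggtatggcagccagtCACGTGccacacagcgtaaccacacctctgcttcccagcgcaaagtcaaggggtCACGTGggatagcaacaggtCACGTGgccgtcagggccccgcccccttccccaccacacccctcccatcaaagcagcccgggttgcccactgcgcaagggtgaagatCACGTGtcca
The E2F letters TTTCGCGC, TTTGGCGC, TTTCCCGC and TTTGCCGC, read on both strands over 250 bases before the start, occurred in 3.02% of 14964 promoters (452). Among the 6 members, only the Rbl1 promoter held one, 18 bases before the start. The E-box occurred in 7.77% of the promoters (1163). The Cdk4 promoter held 4 of them, 172, 118, 98 and 11 bases before the start, and was 1 of only 3 promoters with 4 or more. That of Cdk6 held 1. A match here is a run of letters and not a measured binding site.

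The libraries held 20125106 to 41835978 fragments over all 16124 genes of the expression table. Usp22 was higher in the OE/OE mouse of all 7 pairs (log2 fold change 4.65 ± 0.11, SE), so the genotype labels held. The 8 pan-epithelial markers (Epcam, keratins and others) had a mean log2 level of 14.8 to 15.5 in WT and 14.9 to 15.7 in OE/OE mice. Markers of fibroblasts (12.5 to 14.2), endothelial cells (10.3 to 12.8), macrophages (8.87 to 9.80) and adipocytes (4.60 to 7.79) were, as list means, present in every library. Of 7 lymphocyte markers 5 were in the table (3.63 to 7.31). The OE/OE library of pair 4 stood apart. It had the highest mean log2 level of the 16 mitotic genes (10.05) and the lowest of the endothelial (10.3), fibroblast (12.5) and adipocyte (4.60) markers, while its WT littermate had the lowest mitotic level of all (5.04). Results are therefore given with all pairs and without pair 4. In such bulk RNA, fewer cells of a type and less RNA per cell cannot be told apart.

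Ccnd1 was the most abundant of the 10 transcripts per length and Ccne2 the least. Ccnd1 had 1525 ± 375 normalized counts per kb of exon in WT and 1432 ± 303 in OE/OE mice (mean ± SD, n = 7 each, as for every mean here), above Cdk4 in 13 of 14 libraries. Cdk4 had 1013 ± 224 in WT mice, Rb1 444 ± 82.4, Ccnd2 347 ± 82.6 and Ccnd3 269 ± 34.3. After these came a step: every library had more Ccnd3 than Cdkn2c per kb, and the ranges of these genes over all libraries did not overlap. Cdkn2c (70.1 ± 25.0), Rbl1 (65.9 ± 19.5), Cdk6 (58.4 ± 12.1) and Ccne1 (48.1 ± 16.3) changed places between libraries, and their neighbouring differences were smaller than the SD of those differences, as were those of Rb1 from Ccnd2 and of Ccnd2 from Ccnd3. Ccne2, at 17.2 ± 7.68 in WT mice, was below Ccne1 in all 14 libraries. Lengths counted all annotated exons of a gene together, which lowers the level per kb of a gene with long exons that are seldom used.

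**Figure D1:**
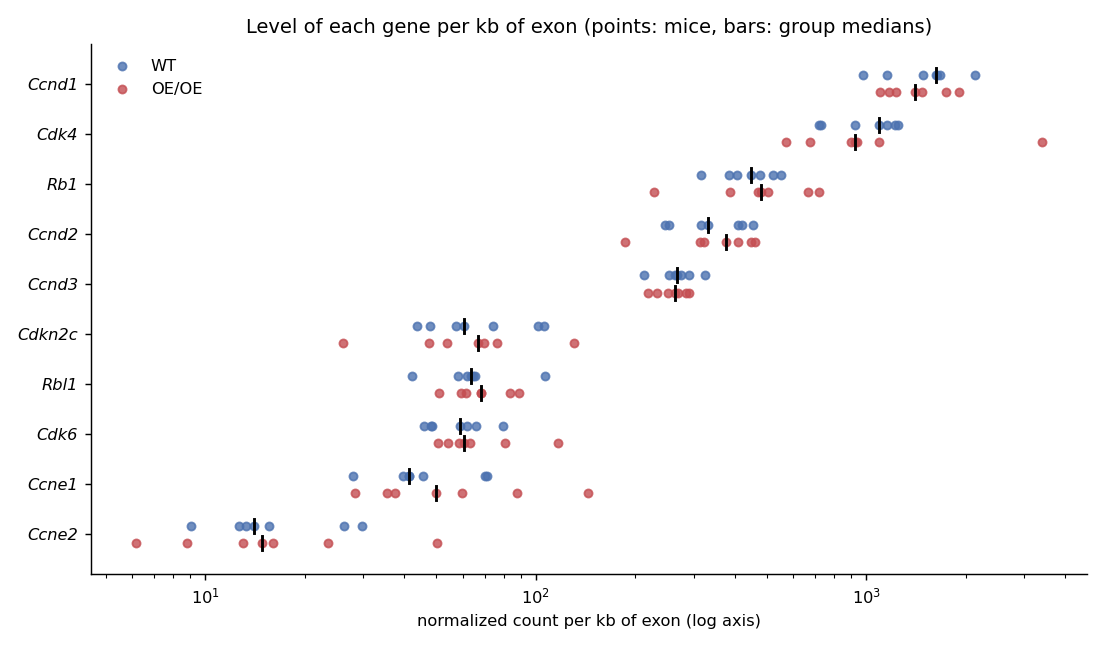
Normalized counts per kb of exon (log axis) of the 10 genes in each mouse, with WT mice in blue, OE/OE mice in red and bars at the group medians. Ccnd1, Cdk4, Rb1, Ccnd2 and Ccnd3 sit apart from the other 5 genes, and WT and OE/OE points overlap for every gene, with the Cdk4 point of OE/OE pair 4 at 3403.

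No member passed the test between genotypes. At an unadjusted limma p of 0.05 or less, the threshold the study used, 0 of 10 members were called, where 3.81% of all genes were (1.95% higher and 1.85% lower). At an adjusted p under 0.05, 0 members and 0.0124% of all genes were called, and every member had an adjusted p of 1.00. With edgeR's quasi-likelihood test on the recovered fragments 1 member was called (Cdk6, higher, beside 3.70% of all genes), and with DESeq2 0 members were (3.88% of all genes). The median log2 fold change over the members was 0.04, against -0.0015 over all genes. WT and OE/OE ranges overlapped for all 10 members, and ranges that did not overlap were found for 0.0434% of all genes. Each member was also tested alone with an exact sign-flip permutation test over the pairs (two-sided, smallest p 0.0156), whose result is given as the exact p. The 95% limma interval of the log2 fold change was narrowest for Ccnd3 (-0.21 to 0.10) and widest for Ccne2 (-0.93 to 0.83), so the change that the data leave room for differed greatly between members.

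**Figure D2:**
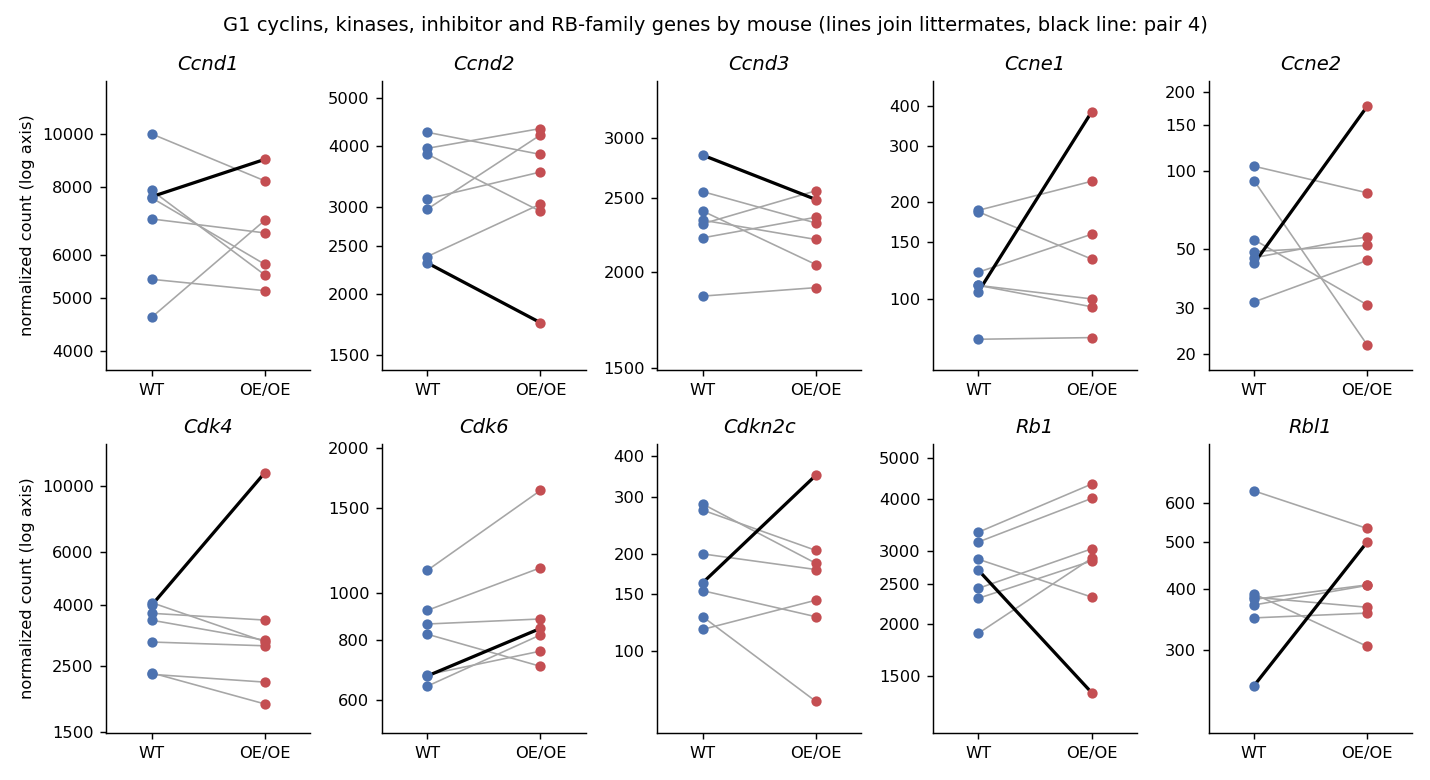
Normalized counts (log axes, a separate one for each gene) of the 10 genes in the WT and OE/OE mice, with a line for each littermate pair and pair 4 in black. The pair 4 line goes up steeply for Ccne1, Ccne2, Cdk4, Cdkn2c and Rbl1 and down for Ccnd2 and Rb1, while the other lines of most genes go both ways.

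Among the D-type cyclins, Ccnd1 (chr7:144929931-144939925, minus strand, GRCm38) had 4615 to 10016 normalized counts in WT mice with a median of 7646, and 5166 to 8994 in OE/OE mice with a median of 6593. The highest and the lowest library were both WT, and the log2 fold change was -0.08 (SE 0.13, 95% interval -0.37 to 0.21, exact p = 0.609), with the OE/OE mouse lower in 5 of 7 pairs. Ccnd2 (chr6:127125162-127152193, minus strand) ranged from 2311 to 4266 with a median of 3120 in WT and from 1745 to 4341 with a median of 3540 in OE/OE mice. Its lowest library was OE/OE pair 4, and its log2 fold change was 0.03 (SE 0.12, interval -0.24 to 0.30, exact p = 0.812). Ccnd3 (chr17:47505051-47599691, plus strand) was the steadiest member, at 1862 to 2846 with a median of 2340 in WT and 1910 to 2557 with a median of 2320 in OE/OE mice. Its highest value over all mice was 1.53 times its lowest, and its log2 fold change was -0.05 (SE 0.07, interval -0.21 to 0.10, exact p = 0.375).

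The make-up of the D-type cyclins was alike in both genotypes within its spread. Per kb, Ccnd1 gave 70.6 ± 5.79% of the D-type transcripts in WT and 69.3 ± 6.54% in OE/OE mice, Ccnd2 16.6 ± 4.90% and 17.9 ± 5.48%, and Ccnd3 12.8 ± 1.81% and 12.8 ± 2.24%. The log2 ratio of Ccnd1 to the sum of Ccnd2 and Ccnd3 differed by -0.08 ± 0.44 (SD of 7 pairs, exact sign-flip permutation test, two-sided p = 0.656) and went up in 4 pairs and down in 3. OE/OE pair 4 had the highest Ccnd1 share of all libraries (80.3%) and the lowest Ccnd2 share (7.79%), and without that pair the difference was -0.18 (exact p = 0.375).

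The E-type cyclins had the lowest mean levels per kb in WT mice. Ccne1 (chr7:38097984-38107534, minus strand) had 74.6 to 189 normalized counts in WT mice with a median of 110, and 75.5 to 384 in OE/OE mice with a median of 133. OE/OE pair 4 was the highest, 1.65 times the next library (OE/OE pair 6, 233), and of the other OE/OE mice only that of pair 6 lay above the WT range. The log2 fold change was 0.24 (SE 0.25, interval -0.32 to 0.81, exact p = 0.578) over all pairs and -0.02 (SE 0.14) without pair 4. Ccne2 (chr4:11191351-11204779, plus strand) had 31.5 to 104 normalized counts in WT mice with a median of 49.1, and 21.6 to 176 in OE/OE mice with a median of 51.8. Its pair log2 ratios ran from -2.04 in pair 5 to 1.97 in pair 4, and the lowest library held 20 Ccne2 fragments, so that single ratios rest on few counts. Its log2 fold change was -0.05 (SE 0.39, interval -0.93 to 0.83, exact p = 0.891), and -0.39 (SE 0.31) without pair 4. Ccne1 made up 73.3 ± 10.5% of the E-type transcripts per kb in WT and 77.5 ± 5.95% in OE/OE mice, and the log2 ratio of Ccne1 to Ccne2 differed by 0.30 ± 1.06 (SD of 7 pairs, exact p = 0.500).

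Neither of the 2 kinases passed the test over all 7 pairs. Cdk4 (chr10:127063534-127067920, plus strand) had 2337 to 4063 normalized counts in WT mice with a median of 3548. In OE/OE mice it had 1860 to 3551 in 6 of them and 11058 in pair 4, which was 2.72 times the next library (WT pair 1). The Cdk4 pair log2 ratios were -0.43, -0.08, -0.35, -0.22, -0.09 and -0.04 in pairs 1, 3, 5, 6, 7 and 8, and 1.48 in pair 4. The log2 fold change was 0.04 (SE 0.20, interval -0.42 to 0.49, exact p = 1.00) over all pairs. Cdk6 (chr5:3341485-3531008, plus strand) had 642 to 1116 normalized counts in WT mice with a median of 823, and 706 to 1635 in OE/OE mice with a median of 846. It was higher in the OE/OE mouse of 6 of 7 pairs, with log2 ratios of -0.22 in pair 1 and 0.03 to 0.55 in the others. The Cdk6 log2 fold change was 0.21 (SE 0.10, interval -0.003 to 0.43, limma p = 0.0526, exact p = 0.0781), just short of the threshold. Without pair 1 it was 0.29 and passed (limma p = 0.00977, exact p = 0.0312), beside 1196 of all 16124 genes. Pair 1 was the only pair in which Cdk6 was lower. Leaving it out gives the other 6 pairs the same sign, so this is a description.

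Per kb, Cdk4 gave 94.2 ± 2.25% of the Cdk4 and Cdk6 transcripts in WT and 92.7 ± 4.74% in OE/OE mice, with the lowest share in OE/OE pair 5 (83.0%) and the highest in OE/OE pair 4 (98.2%). The log2 ratio of Cdk4 to Cdk6 was lower in the OE/OE mouse of 6 of 7 pairs, with a mean difference of -0.18 ± 0.63 (exact p = 0.516). Without pair 4 the difference was -0.40 ± 0.27 and had the same sign in 6 of 6 pairs (exact p = 0.0312, the smallest that 6 pairs can give). Pair 4 was set aside with its values known and was the only pair in which this ratio was higher. The sign in the other 6 pairs and its p are therefore descriptions. This ratio does not depend on how libraries were scaled to each other, and its p is 1 of 3 from the ratios examined, with no adjustment.

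Cdkn2c (chr4:109660876-109667189, minus strand) had 117 to 285 normalized counts in WT mice with a median of 163, and 70.1 to 350 in OE/OE mice with a median of 179. The lowest library was OE/OE pair 5 and the highest OE/OE pair 4, so the OE/OE mice spanned the whole WT range. The log2 fold change was -0.13 (SE 0.22, interval -0.62 to 0.36, exact p = 0.609), with the OE/OE mouse lower in 5 of 7 pairs. Without pair 4 it was -0.33 (SE 0.15, limma p = 0.0570, exact p = 0.125).

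Of the RB family, Rb1 (chr14:73183673-73325822, minus strand) had 1901 to 3324 normalized counts in WT mice with a median of 2695, and 1370 to 4336 in OE/OE mice with a median of 2877. The lowest library was OE/OE pair 4, and the 2 highest were OE/OE pairs 3 and 5. Its log2 fold change was 0.09 (SE 0.17, interval -0.29 to 0.48, exact p = 0.656), made of log2 ratios of -0.30 in pair 1, -0.98 in pair 4 and 0.30 to 0.60 in the other 5 pairs. Rbl1 (chr2:157145893-157204534, minus strand), whose protein works with E2F repressors, had 253 to 637 normalized counts in WT mice with a median of 381, and 305 to 533 in OE/OE mice with a median of 407. The lowest and the highest Rbl1 library were both WT (pairs 4 and 6), and the log2 fold change was 0.08 (SE 0.15, interval -0.26 to 0.42, exact p = 0.781). Per kb, Rb1 gave 86.8 ± 4.24% of the Rb1 and Rbl1 transcripts in WT and 86.4 ± 6.45% in OE/OE mice, with the lowest share in OE/OE pair 4 (73.2%).

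**Figure D3:**
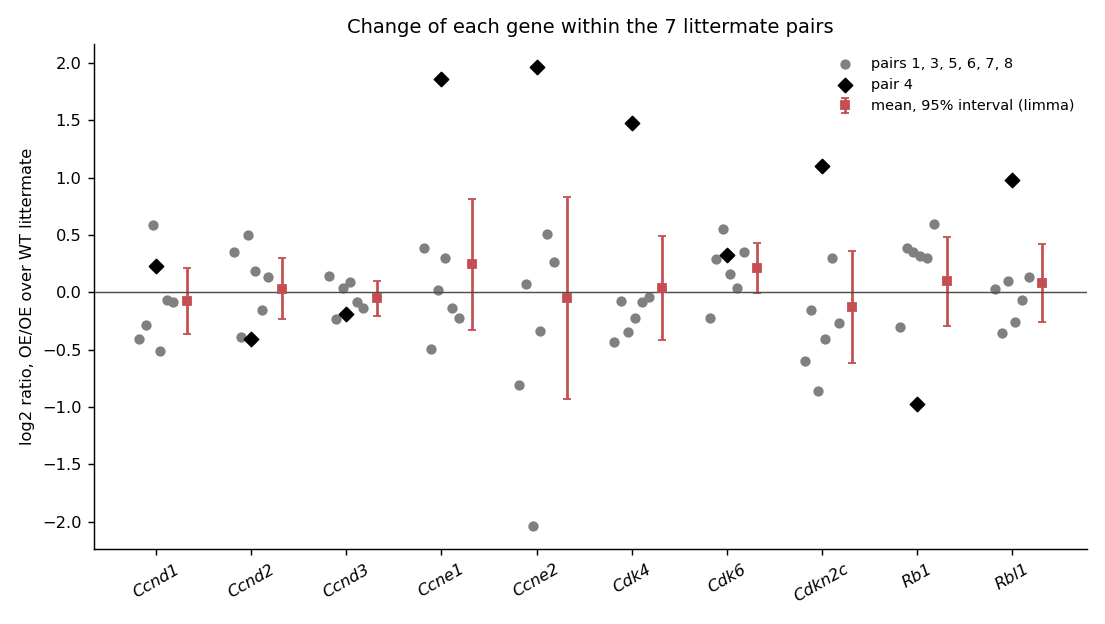
Log2 ratio of each gene in the OE/OE mouse over its WT littermate, with pair 4 as a black diamond, the other 6 pairs in grey, and the mean over 7 pairs with its 95% limma interval in red. All 10 intervals reach 0, Cdk4 lies below 0 in every pair but pair 4, and Cdk6 lies above 0 in every pair but pair 1.

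Without pair 4, Cdk4 fell and Rb1 rose at the unadjusted threshold. Pair 4 was set aside with its values known, and its Cdk4 and Rb1 ratios ran the other way, so these are descriptions. Cdk4 had a log2 fold change of -0.20 (SE 0.07, limma p = 0.0219, adjusted p = 0.539, exact p = 0.0312) and was lower in 6 of 6 pairs, as 2.83% of all genes were. Rb1 had one of 0.27 (SE 0.11, limma p = 0.0285, adjusted p = 0.551, exact p = 0.0938) and was higher in 5 of 6 pairs. These are 2 of 10 members called, beside 8.47% of all genes (4.49% higher and 3.98% lower), and at an adjusted p under 0.05 no member passed, beside 0.0124% of all genes. In these 6 pairs the OE/OE mice were lower in adipocyte markers in 5 (log2 differences of -0.52 to -1.36) and lower in fibroblast markers in pairs 3, 5, 6 and 7 (-0.46 to -0.98). Pan-epithelial markers were higher in 5 of the 6, by 0.01 to 0.30. The part of these shifts in the changes of Cdk4 and Rb1 was not tested. With the adipocyte level as a covariate and all 7 pairs kept, Cdk4 (-0.50) and Cdkn2c (-0.59) were called lower at the unadjusted threshold. These were 2 of 10 members, beside 3037 of all 16124 genes (1355 lower), and Rb1 had 0.26 and was not called.

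The members differed in how they followed cell division from mouse to mouse. The mean log2 level of the 16 mitotic genes, among them Mki67, Top2a and Cdk1, ran from 5.04 to 9.13 in WT and from 5.58 to 10.05 in OE/OE mice. In a limma fit with pair, genotype and this level, Cdk4 rose by 0.26 log2 units per log2 unit (SE 0.04, adjusted p = 0.00960), Ccne1 by 0.29 (SE 0.07, adjusted p = 0.0353), Rbl1 by 0.17 (SE 0.04, adjusted p = 0.0354) and Cdkn2c by 0.24 (SE 0.06, adjusted p = 0.0452). At an adjusted p under 0.05 these were 4 of 10 members, all with a positive slope, where 9.69% of all genes were called, 4.05% with a positive slope and 5.64% with a negative one. The slopes of Ccne2 (0.41, SE 0.12, adjusted p = 0.0628) and Rb1 (-0.17, SE 0.06, adjusted p = 0.0842) did not pass. Both did with the E2F target level in place of the mitotic one (adjusted p = 0.0423 and 0.0464), a fit that called more of all genes. The slopes of Ccnd1 (0.05), Ccnd2 (-0.07), Ccnd3 (-0.02) and Cdk6 (0.02) had adjusted p of 0.385 to 0.843.

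These slope calls rest on pair 4. The mitotic level differed by 5.01 log2 units between the mice of that pair and by -2.22 to 0.37 in the others. Without pair 4, 0 members were called, as were 0.00% of all genes, and at an unadjusted p of 0.05 or less 0 members were called beside 2.41% of all genes. The slope was then 0.06 for Cdk4, 0.05 for Ccne1, 0.17 for Cdkn2c and 0.09 for Rbl1, and that of Rb1 had the opposite sign (0.09). That of Ccne2 kept its size (0.41) with a wider SE (0.33). Without pair 6, 1 member was called beside 648 of all 16124 genes, and without pair 7, 1 beside 811. Without pair 5, 2 members were called beside 939 of all genes, and without pair 8, 2 beside 918. With all pairs, 4 members were called beside 1562 of all genes. In pair 4 the mean log2 levels of endothelial and adipocyte markers also differed, by -1.77 and -2.57, and their part in the member values of that pair was not tested.

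**Figure D4:**
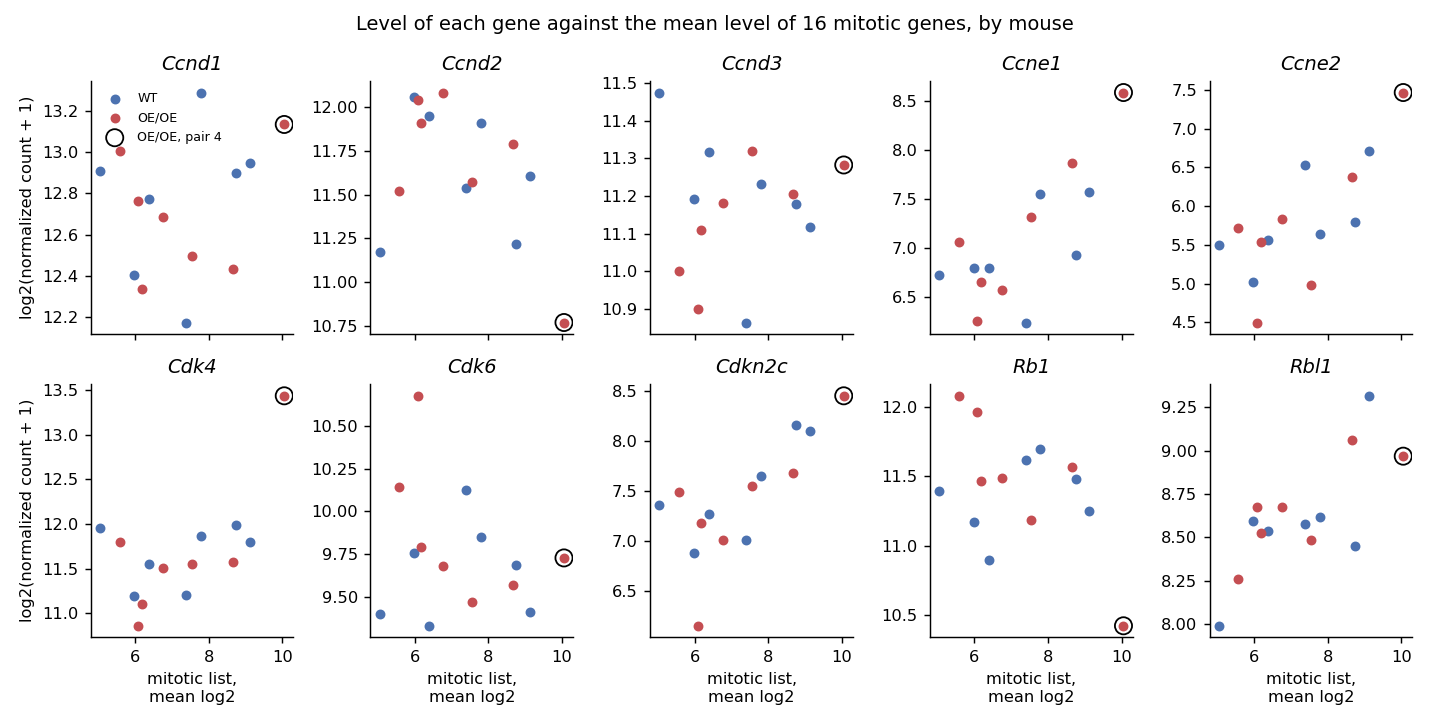
Log2(normalized count + 1) of each gene against the mean log2 level of the 16 mitotic genes, 1 point per mouse, with WT in blue, OE/OE in red and a ring around OE/OE pair 4. The ringed mouse has the highest Ccne1, Ccne2, Cdk4 and Cdkn2c and the lowest Ccnd2 and Rb1 of the 14 mice, and the D-type cyclins and Cdk6 show little order along the axis.

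Partners of the members in the pathway were called at a share near that of all genes. Of 36 other genes (CDK2 and its activating kinase, other CDK inhibitors, E2F and DP factors, RBL2 (p130) and the MuvB subunits, and parts of the ligases that degrade cyclins), 1 was called, beside 3.81% of all genes. This was E2f7, an E2F repressor, which had a log2 fold change of 0.31 (SE 0.14, limma p = 0.0456, adjusted p = 1.00, exact p = 0.0625) and was higher in 6 of 7 pairs. Its largest log2 ratio was that of pair 4 (0.75). Without pair 4, E2f7 had 0.24 (SE 0.13, exact p = 0.125) and was not called. Of the limma fits that left out a pair, only that without pair 6 called it. Over all pairs edgeR and DESeq2 did not call it, while quantile normalization did. Cdk2, the kinase of cyclin E, had a log2 fold change of 0.03 (exact p = 0.781), and the inhibitor genes Cdkn1a and Cdkn1b had 0.02 (exact p = 0.953) and 0.08 (exact p = 0.109). Rbl2, the third RB-family gene, had -0.06 (exact p = 0.641) and the activator E2f1 0.01 (exact p = 1.00). E2f1 had 78.9 to 193 normalized counts in 13 libraries and 503 in OE/OE pair 4.

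Of 17 E2F target genes of S phase, 1 rose over all pairs (Cdt1, which licenses replication origins, log2 fold change 0.26, SE 0.10, limma p = 0.0286, exact p = 0.0469), and of the 16 mitotic genes 1 fell (Aurka, a kinase of the mitotic spindle, -0.39, SE 0.12, limma p = 0.00869, exact p = 0.0469). Both had an adjusted p of 1.00, and with 3.81% of all genes called, 1.95% higher and 1.85% lower, a call in each list is near that share. Mki67 had 66.3 to 2025 normalized counts in WT and 151 to 2627 in OE/OE mice, and a log2 fold change of 0.15 (SE 0.75, exact p = 0.922). Pair 4 was set aside for its mitotic level, in which its OE/OE mouse was the higher one, so leaving it out lowers the mitotic and E2F target values by construction and the counts that follow are descriptions. Without pair 4, 9 of the 17 E2F targets were called lower, Mcm2, Mcm3, Mcm5, Mcm6, Mcm7, Rrm1, Rrm2, Tyms and Tk1, and so were 9 of the 16 mitotic genes, among them Top2a, Cdk1, Ccna2, Ccnb2 and Cdc20, where 3.98% of all genes were. None was called higher in either list, and none passed at an adjusted p under 0.05. Cdt1 then had 0.19 (SE 0.09, exact p = 0.0938) and lost its call. Aurka kept its call (-0.41, SE 0.12, exact p = 0.0938). The list medians were then -0.29 and -0.80, against -0.0039 over all genes. The E2F target level was lower in the OE/OE mouse of 6 of 7 pairs, by 0.04 to 0.49 log2 units, and higher by 1.72 in pair 4. From the pathway lists E2f1 (-0.39, exact p = 0.0625), Mybl2 (-0.52, exact p = 0.0938) and Cks1b (-0.41, exact p = 0.0625) passed the limma threshold without pair 4 and fell, that is 3 of 36 genes, near the 8.47% of all genes called.

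**Figure D5:**
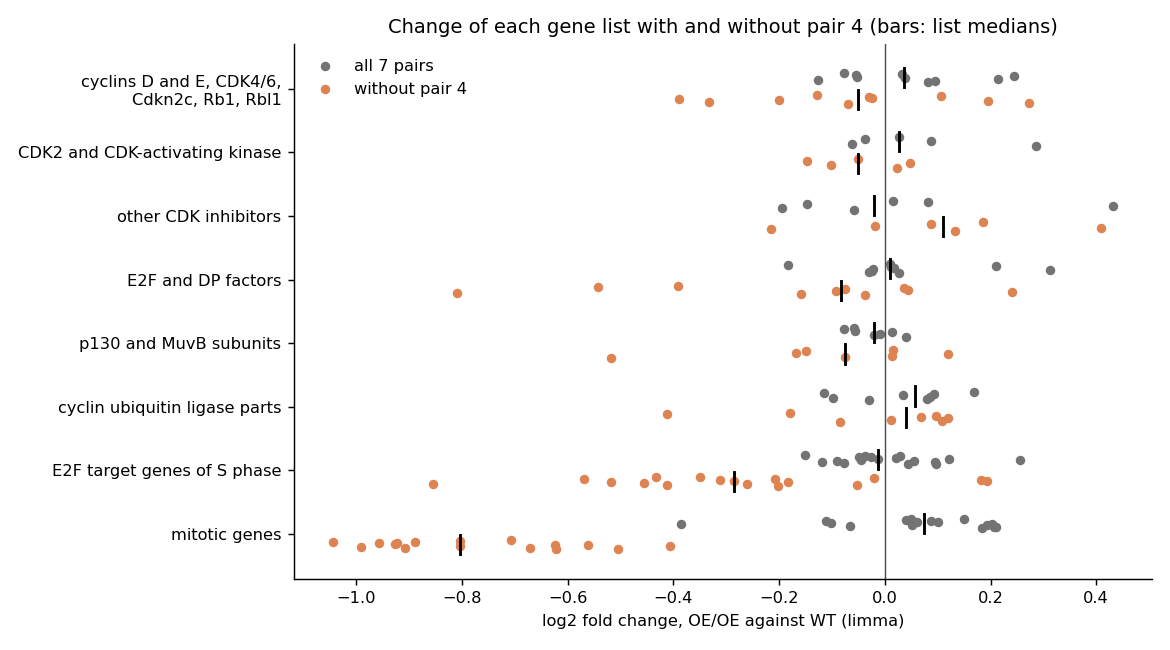
Log2 fold change of each gene, OE/OE against WT, by gene list, over all 7 pairs in grey and without pair 4 in orange, with bars at the list medians. The medians of all lists lie close to 0 over all pairs, and without pair 4 those of the E2F target and mitotic lists move to -0.29 and -0.80.

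The slope on the mitotic level was called for 10 of the 36 pathway genes, beside 9.69% of all genes. It was positive for Cdc25a, E2f1, E2f2, E2f3, E2f8, Tfdp1, Mybl2, Skp2 and Cks1b, and negative for Cdkn1a (-0.21, SE 0.04, adjusted p = 0.0183), which encodes a broad CDK inhibitor. Without pair 4 none of these 10 was called at an adjusted p under 0.05, and E2f8 and Mybl2 passed the unadjusted threshold, as 2.41% of all genes did.

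Some members varied together over the 14 libraries. These correlations are descriptions, since libraries share litters and differ in depth. Cdk4 followed Cdkn2c (Pearson r = 0.82, and 0.89 over the 12 libraries without pair 4), and Ccne1 followed Cdkn2c (0.81, and 0.74). Cdk6 followed Rb1 (0.61, and 0.82) and ran against Ccnd3 (-0.81, and -0.83). Ccnd2 ran against Cdk4 (-0.81), which weakened to -0.57 without pair 4.

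The genes most like each member, among 13230 with a mean of at least 50 normalized counts, differed from member to member. They were Ctf1 (r = 0.87), Xrcc1 (0.81) and Cdca7l (0.80) for Ccnd1, and Arhgef7 (0.95), Synm (0.95) and Myh11 (0.95) for Ccnd2. For Ccnd3 they were Anxa4 (0.92), Cystm1 (0.92) and Arl2 (0.91). Myh11, a smooth muscle myosin, is one of the basal cell markers, whose mean log2 level was 13.0 to 13.7 in both genotypes. For Ccne1 they were Tbc1d7 (0.93), Gusb (0.93) and Tmem54 (0.91), and for Ccne2 Klhl8 (0.90), Fignl1 (0.88) and Pole2 (0.86). For Cdk4 they were Dera (0.97), Cbx3 (0.97) and Mtch2 (0.97), for Cdk6 Nfib (0.94) and Cep170b (0.94), and for Cdkn2c Nmral1 (0.96), Cks2 (0.95) and Lyrm2 (0.95). Pole2 encodes a subunit of a replicative DNA polymerase, and Cks2 a small protein that binds cyclin-dependent kinases. For Rb1 they were Slc41a1 (0.91), Egr3 (0.89) and Epha4 (0.87), and for Rbl1 Slfn9 (0.91), Brip1 (0.88) and Brca1 (0.87). Without pair 4 the r of the genes named lay between 0.76 and 0.96.

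Exons of 7 members (all but Ccne1, Cdkn2c and Rbl1) overlap a gene on the opposite strand, and whether the fragments were counted by strand is not given in the sources used here. The partner of Cdk4, Tspan31, had 3254 normalized counts in OE/OE pair 4 and at most 3048 in WT mice, while Cdk4 itself had 11058 there. Bysl, the partner of Ccnd3, had 2145 in OE/OE pair 4, at most 1362 in WT and at most 1413 in the other OE/OE mice. LTO1, Ints8, Rcbtb2 and Lpar6 lay within their WT ranges in that mouse. The part of overlapping genes in the member values was not tested. None of the partners in the table (LTO1, Bysl, Ints8, Tspan31, Rcbtb2 and Lpar6) was called between genotypes, with p of 0.107 to 0.971.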

How the data were processed

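The authors aligned their reads with TopHat2 2.0.10 (mm10) and counted fragments over GENCODE M21 genes with HTSeq 0.6.0. A gene had to reach 10 fragments in 7 libraries, which all 16124 genes did. The deposited values are counts divided by DESeq 1.18.0 size factors, a signal scaled between libraries but not by gene length. In every library all values were whole multiples of 1 step (tolerance 0.01 fragment), which gave the fragments and a depth of 20125106 to 41835978 (median 37838929).

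Log2(normalized count + 1) was fitted with limma 3.58.1 (trend, littermate pair as a block), a scale that understates changes of low genes. Genes were called at an unadjusted p of 0.05 or less, the study's threshold, with Benjamini-Hochberg adjustment over 16124 genes beside it. Pair numbers come from the labels, and that the pairs are littermates comes from the study's methods. Same-numbered mice deviated together (correlation 0.171 to 0.748, median 0.522, against -0.151 for the other 42 combinations). Single values were tested by an exact two-sided sign-flip permutation test over 7 pairs (128 patterns, smallest p 0.0156). Levels per kb used joined GENCODE M21 exons. Alternatives were other pseudocounts (0.1 and 10), a mean of at least 50, no trend, no block, edgeR 4.0.16, DESeq2 1.42.0, quantile normalization, covariates, and each pair left out. The genes named are the members, Usp22, pathway and target genes passing the threshold, 6 set partners, and for each member the 3 genes with the highest r, of which 1 is not reported here. Tspan31 and the other overlapping genes were named after their values were seen. The members and lists were chosen with earlier results of these data known.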

Additional observations from a re-analysis of the deposited data

Results flagged for a closer look

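Among 24 groups of 7 mice examined (the 10 members and the E2F target and mitotic levels in each genotype), 3 held a mouse whose gap to its nearest neighbour, divided by the range within the group, passed Dixon's 95% critical value. For independent groups of normally distributed values about 1 in 20 would pass, or 1.2 of 24. The gaps of the members were taken on normalized counts, not on the log2 scale of the fits, and the groups share mice. The 3 flags are therefore descriptions, and whether they exceed that number was not tested. Cdk4 in OE/OE pair 4 had 11058 normalized counts, the nearest OE/OE mouse had 3551, and the gap was 0.816 of the range. Ccne2 in OE/OE pair 4 had 176 normalized counts against 82.3 in the nearest mouse (gap 0.606). Rbl1 in WT pair 6 had 637 against 391 (gap 0.639), and that mouse also had the highest mitotic level of the WT mice (9.13). The part of cell division or of other cell types in these values was not tested.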

How the results depend on the processing

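Among single-gene results under alternatives other than a left-out pair, 195 kept their direction and their side of the threshold, 17 turned direction, 7 became called and 9 lost their call. Without the littermate block the count of all genes fell from 614 to 182, and the pathway and the E2F target and mitotic lists had 0 calls each, while the members stayed at 0. The per-gene paired test of the study called 0 pathway genes and 1 E2F target or mitotic gene, and 0 of all genes at an adjusted p under 0.05. edgeR with TMM and edgeR with the size factors of DESeq2 called 1 member (Cdk6) and 0 pathway genes each. DESeq2 called 0 pathway genes, and 19 of all genes at an adjusted p under 0.05. The log2 fold changes of E2f1 and Mki67 turned to -0.041 and -0.17 with edgeR and TMM, -0.039 and -0.17 with the other size factors, and -0.046 and -0.17 with DESeq2. Quantile normalization called 1 member (Cdk6) and turned Ccnd2 to -0.023 and Cdkn1a to -0.053. No scaling moved the median over all genes by more than 0.1.

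With the adipocyte level as a covariate 3037 genes, 2 members, 11 pathway genes and 17 E2F target or mitotic genes were called, and values turned to 0.050 for Ccnd3, -0.14 for Ccne1, -0.50 for Cdk4, -0.17 for Rbl1, -0.20 for Cdk2, 0.12 for Rbl2, -0.89 for E2f1 and -1.65 for Mki67. With the mitotic level as a covariate 1011 genes were called and E2f1 turned to -0.015. This covariate was not run for the mitotic list itself. With the E2F target level in place of the mitotic one, 2906 genes and 6 members had a called slope, Ccne2 and Rb1 among them. The cause of these shifts was not tested.

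Leaving out each pair gave 381 (without pair 6) to 1366 (without pair 4) called genes, 0 to 2 members, 0 to 3 pathway genes and 1 to 18 E2F target or mitotic genes. Called slopes ran from 0 (without pair 4) to 6 (without pair 3) over the members. The count of called slopes over all genes was likewise 0 without pair 4 and highest without pair 3. Rb1 was called without pair 1, and Ccnd2 and Ccne2 without pair 3. The Cdk6 log2 fold change, 0.16 to 0.29, was called without pair 1 only. Log2 fold changes that changed sign ran from -0.045 to 0.11 for Ccnd2, -0.024 to 0.37 for Ccne1, -0.39 to 0.28 for Ccne2, -0.20 to 0.12 for Cdk4, -0.069 to 0.15 for Rbl1, -0.051 to 0.085 for Cdk2, -0.081 to 0.19 for Cdkn1a, -0.098 to 0.016 for Rbl2, -0.39 to 0.13 for E2f1 and -0.71 to 0.59 for Mki67. Slopes that changed sign ran from -0.011 to 0.089 for Ccnd1, -0.13 to 0.040 for Ccnd2, -0.045 to 0.0090 for Ccnd3, -0.029 to 0.033 for Cdk6 and -0.20 to 0.093 for Rb1. The log2 ratio of Ccnd1 to Ccnd2 and Ccnd3 ran from -0.18 to 0.015, and that of Cdk4 to Cdk6 from -0.40 to -0.056. With 20 to 183 fragments per library, Ccne2 is the member whose values depth limits most.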
